A study of Mus musculus with 14 samples.

Results

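The levels of 10 keratin and epidermal genes were followed across the 14 RNA-seq libraries of embryonic hippocampus. They are Krt5, Krt14, Krt15, Krt7, Krt6a, Krt13, Krt80, Sprr1a, Hrnr and Pkp1, taken as a list of epidermal genes and located in the gene table by symbol. All 10 were found among the 20460 named loci of a table of 59796. The list was selected on values of these libraries in the 189N3 comparison, in that it was drawn up with those results known, and 4 of its genes (Hrnr, Krt6a, Krt7 and Krt13) stand in the study's own gene list for 189N3 mice. Their values in that comparison are therefore given as a description, without a test.

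The study asked what Dyrk1a and other genes of the chromosome 21 syntenic region contribute to changes in the embryonic hippocampus. Hippocampi were dissected from embryos of embryonic day 16 to 18. The 189N3 line carries an extra copy of Dyrk1a on a bacterial artificial chromosome (BAC), and 3 libraries of it were set against 3 of wild-type littermates. The Dp(16)1Yey/+ line carries an extra copy of the mouse chromosome 16 region syntenic to human chromosome 21, Dyrk1a included, and 4 libraries were set against 4 of wild-type littermates. No agent was given to any group. Sex and litter of the embryos are not in the labels, and it is not stated in so many words whether each library is 1 embryo, so that the p-values measure the spread between these libraries. In a whole-tissue sample, fewer cells of a type and less RNA per cell cannot be told apart.

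Keratins are the intermediate filament proteins of epithelial cells. A type II keratin pairs with a type I keratin, and the pair changes as a keratinocyte leaves the basal layer: Krt5 and Krt14 in basal cells give way to Krt1 and Krt10 above them, while mucosal squamous epithelium uses Krt4 and Krt13. In the upper layers the cell builds a cornified envelope from proteins of the epidermal differentiation complex, to which Sprr1a and Hrnr belong, and neighbouring cells are held together by desmosomes, to which Pkp1 contributes. None of these genes is a usual marker of neurons or glia.

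The genes lie in a few clusters (GRCm38, the mm10 build). Krt80, Krt7, Krt6a and Krt5 lie in the type II keratin cluster of chromosome 15, within 101347444 to 101712898. Krt13, Krt15 and Krt14 lie in the type I cluster of chromosome 11, within 100117327 to 100207548. Sprr1a (92483952 to 92485895) and Hrnr (93319749 to 93333570) are on chromosome 3, and Pkp1 (135871395 to 135919207) is on chromosome 1. Krt5, Krt7, Krt6a, Krt80 and Hrnr each overlap a gene annotated on the other strand. The paper names a stranded library kit, but the counting was not stated to use strand. Values of these genes may therefore include reads of the other strand. Of the windows of 100 bases along the longest transcript of Krt6a, 29.1% also occur in Krt5, Krt6b or Gm5478, so its fragments could have been split between copies. For Krt5 and Krt14 the share was 2.38% and 2.88%, and for the other 7 members it was 0%.

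RefSeq promoter sequences (GRCm38.p6) were found for 6 of the 10 members: Krt5, Krt14, Krt7, Krt13, Sprr1a and Hrnr. The 100 bases before the start are shown for Krt5, Krt13 and Hrnr, a basal keratin, a mucosal keratin and a cornified-layer gene from 3 clusters, whose levels part ways in the libraries described below. The capitals mark ATAAAA, letters that resemble the TATA box and were chosen after the sequences had been seen. The windows are chr15:101712906-101713005 and chr11:100121567-100121666 on the minus strand, and chr3:93319649-93319748 on the plus strand.
Krt5: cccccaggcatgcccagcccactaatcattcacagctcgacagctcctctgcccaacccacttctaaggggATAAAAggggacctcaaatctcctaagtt
Krt13: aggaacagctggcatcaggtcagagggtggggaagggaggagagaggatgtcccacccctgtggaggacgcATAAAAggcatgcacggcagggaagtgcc
Hrnr: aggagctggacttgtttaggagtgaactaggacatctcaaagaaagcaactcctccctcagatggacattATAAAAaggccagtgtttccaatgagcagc

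ATAAAA was present on the gene's strand within 40 bases before the start in 4 of the 6 promoters, and in 2.40% of 27025 promoters of all genes. TGANTCA, the AP-1 motif, which reads the same on both strands, was present in the 250 bases before the start in 2 of the 6 (Krt13 and Sprr1a), and in 6.87% of all promoters. These are matches of letters and not measured binding sites.

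The libraries held 20809135 to 29098454 fragments, and 1 fragment was worth 0.816 to 1.21 units of the deposited values, which are called normalized fragments here. The 10 genes together took 2296 fragments over the 14 libraries, of which Hrnr in a single library took 984, so most values below rest on a few fragments and counting error alone is large. Dyrk1a was at 3938 to 5877 normalized fragments in the 189N3 libraries and 2126 to 2977 in their littermates. Over 85 genes of the region triplicated in Dp(16)1Yey/+, the median log2 difference from the littermate mean was 0.69, 0.58 and 0.40 in replicates 0, 2 and 3, and 0.10 in replicate 1, which is within the littermates' own range of -0.14 to 0.12. Dyrk1a stood at 4781, 3600 and 3044 normalized fragments in replicates 0, 2 and 3, at 2124 in replicate 1 and at 2397 to 3175 in the littermates. These values of replicate 1 go against its label, and whether the label is right was not tested. It is called by its label throughout, and the fold changes of the members that were high in it are also given without it. Wild-type littermates of Dp(16)1Yey/+ formed pairs of nearly alike libraries, replicates 0 and 1 and replicates 2 and 3, whose squared difference in the median locus was 1.42 and 1.53 times counting noise against 5.98 to 12.9 times between Dp(16)1Yey/+ libraries.

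Hippocampal and pallial genes, such as Neurod6 and Prox1, were expressed in all libraries, and the 8 genes of that list summed to between 19779 and 30844 normalized fragments. The 10 keratin and epidermal genes summed to 36.7 to 65.4 in 189N3 mice, 130.0 to 1498 in their wild-type littermates, 7.91 to 235.1 in Dp(16)1Yey/+ mice and 4.95 to 26.3 in the wild-type littermates of that line. The 189N3 littermates therefore stood above every other group in their lowest library except for Dp(16)1Yey/+ replicate 1. Against the whole of a library, the members amounted to 0.215 to 59.6 fragments in each 1000000.

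**Figure D1:**
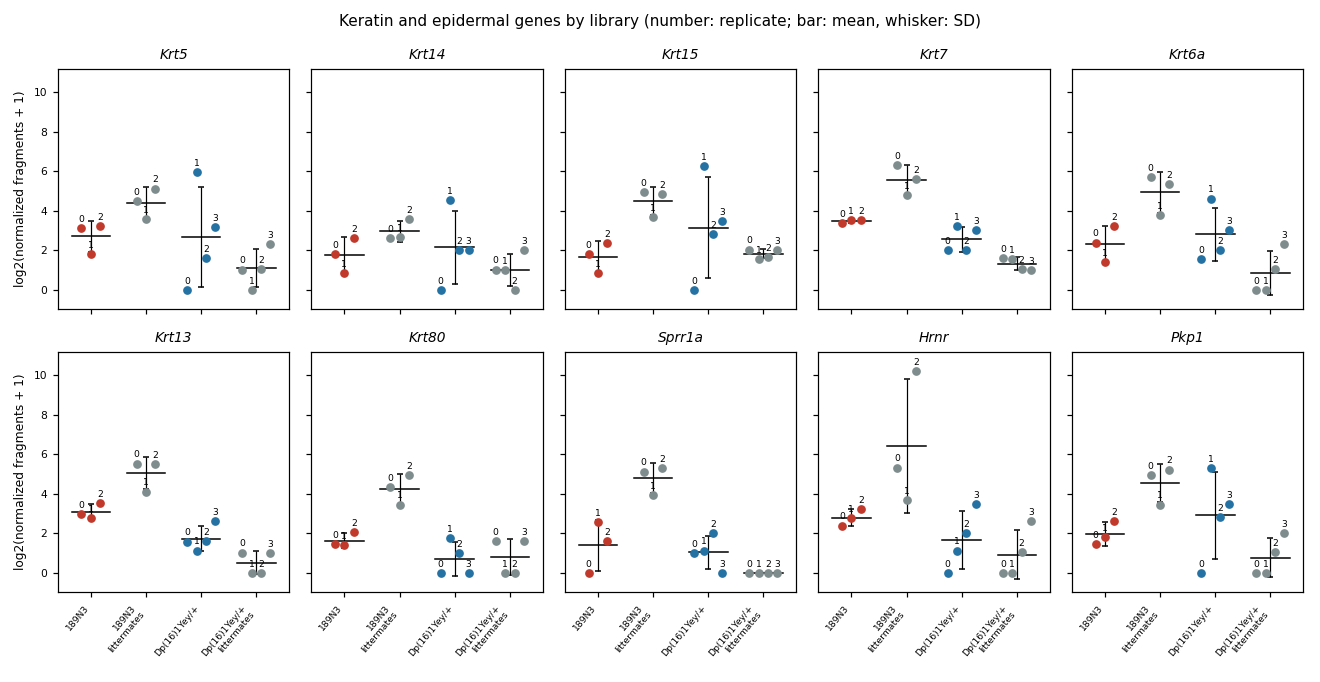
Level of each of the 10 genes in every library, as log2 of the normalized fragments plus 1, by group. Points are libraries with their replicate number, the bar is the group mean and the whisker the SD. The 3 libraries of 189N3 littermates lie above the 3 of 189N3 mice for all 10 genes, Hrnr reaches 1189 normalized fragments in 1 littermate, and Krt5, Krt14, Krt15 and Pkp1 are highest in Dp(16)1Yey/+ replicate 1 within that line.

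The first comparison set 189N3 mice against their littermates. All 10 genes were lower in each 189N3 library than in each littermate library, in the direction in which the list was drawn up. Of all 51540 loci with any value above 0, 3.79% were lower without overlap, and of the 35899 with a mean of at least 10, 2.99% were. Nothing is read from the count of members, since these values had a part in choosing them. Across all loci tested, 0 of 35899 passed an adjusted p-value of 0.05 in limma, 672 had an unadjusted p-value under 0.05 (1.87%), edgeR on the recovered fragments gave 0, and DESeq2 called 15 (14 lower, 1 higher). All members but Krt14 had a mean of at least 10 there, reached through the littermates. The median log2 fold change was -2.60 over the 10 members and -0.04 over all loci tested.

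Basal keratins form the first set. Krt5, the type II keratin of basal keratinocytes, stood at 7.61, 2.45 and 8.30 normalized fragments in 189N3 replicates 0, 1 and 2 and at 21.7, 10.8 and 33.8 in the littermates. Krt15, a type I keratin of basal cells and hair follicle stem cells, stood at 2.54, 0.816 and 4.15 against 30.3, 11.7 and 27.8, so that the lowest littermate was above the highest 189N3 library. The log2 fold change was -1.69 (standard error 0.51) for Krt5 and -2.81 (standard error 0.52) for Krt15. Krt14, the type I partner of Krt5, was the lowest of the set, at 2.54, 0.816 and 5.19 against 5.20, 5.41 and 10.9. Its groups nearly touched, and its log2 fold change of -1.19 was the smallest of the 10.

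The keratins of mucosal, simple and activated epithelium formed the next set. Krt7, a type II keratin of simple and glandular epithelium, stood at 9.31, 10.6 and 10.4 normalized fragments in 189N3 mice and at 78.8, 27.1 and 47.1 in the littermates. Krt13, the type I keratin of mucosal squamous epithelium, stood at 6.77, 5.71 and 10.4 against 45.0, 16.2 and 44.7. Krt7 was nearly level among the 189N3 libraries, and both genes were lowest in replicate 1 among the littermates. Krt6a, a keratin of hair follicles and of activated keratinocytes, stood at 4.23, 1.63 and 8.30 against 51.1, 12.6 and 39.9. Krt80, a type II keratin linked to desmosomes, stood at 1.69, 1.63 and 3.11 against 19.1, 9.93 and 30.2. The log2 fold changes were -2.10 (standard error 0.39) for Krt7, -1.98 (standard error 0.44) for Krt13, -2.61 (standard error 0.56) for Krt6a and -2.62 (standard error 0.50) for Krt80.

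The envelope and junction genes included the widest differences. Sprr1a, a small proline-rich protein cross-linked into the cornified envelope, stood at 0, 4.89 and 2.08 normalized fragments in 189N3 mice and at 33.8, 14.4 and 38.7 in the littermates. Pkp1, the plakophilin that anchors desmosomal plaques in the upper epidermis, stood at 1.69, 2.45 and 5.19 against 29.5, 9.93 and 36.3. Their log2 fold changes were -3.40 (standard error 0.61) and -2.58 (standard error 0.53). Hrnr, a filaggrin-like protein of the cornified layer, stood at 4.23, 5.71 and 8.30 against 39.0, 11.7 and 1189, and this 1 library set its fold change of -3.62 (standard error 1.07). Without littermate replicate 2, the log2 fold change of Hrnr was -1.71 and the median of the 10 members -2.17. In that library Hrnr made up 79.4% of the members' sum, against 9.03% and 11.0% in the other littermates.

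**Figure D2:**
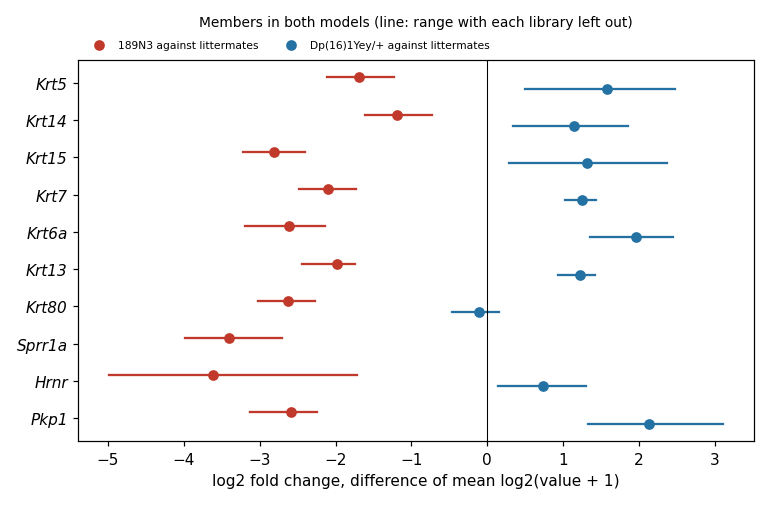
Log2 fold change of each gene in 189N3 mice (red) and in Dp(16)1Yey/+ mice (blue) against their own littermates, as the difference of mean log2(value + 1), with the line spanning the values obtained when each library is left out. In 189N3 mice the 10 points run from -3.62 to -1.19, and the line of Hrnr reaches -1.71. In Dp(16)1Yey/+ mice Sprr1a is not drawn, because its littermates were all at 0, and the line of Krt80 crosses 0.

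The second comparison set Dp(16)1Yey/+ mice against their own littermates. The choice of members is not known to have used it, but was made with earlier results of these data known. Krt7 and Krt13 were higher in each of the 4 Dp(16)1Yey/+ libraries than in each littermate library, and the other 8 genes overlapped. Among the 51439 loci with any value above 0, 1.48% were higher without overlap. Krt7 stood at 2.97, 8.23, 3.06 and 7.04 normalized fragments in replicates 0 to 3 and at 2.06, 1.98, 1.08 and 1.01 in the littermates. Krt13 stood at 1.98, 1.18, 2.04 and 5.03 against 1.03, 0, 0 and 1.01. Both genes gave p = 0.0286 in an exact two-sided permutation test of each of the 10 members, which is the smallest that 4 against 4 libraries allow and is not adjusted for the 10 tests. Over all loci without a filter, limma gave an adjusted p-value of 0.925 for each of Krt7 and Krt13.

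These differences are of a few fragments. Krt7 had 20 fragments in all 4 Dp(16)1Yey/+ libraries and 6 in the 4 littermates, a ratio per sequenced fragment of 3.30 (95% exact interval 1.28 to 10.03, counting error only). Krt13 had 10 and 2, a ratio of 4.95 (1.05 to 46.4). The log2 fold changes were 1.24 and 1.22. Without Dp(16)1Yey/+ replicate 1 they were 1.03 and 1.42, with p = 0.0286 in the exact permutation test, again the smallest possible. When replicates 0 and 1, and 2 and 3, of the littermates were averaged, the exact permutation test gave p = 0.133 for Krt7 and p = 0.0667 for Krt13, the latter being the smallest that design allows. Without littermate replicate 2 or replicate 3 alone the exact permutation test gave p = 0.0857 for Krt7. For Krt13 the exact permutation test gave p = 0.0571 without any 1 of the littermates, and p = 0.114 without Dp(16)1Yey/+ replicate 3.

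The remaining members did not separate, with p-values from 0.0857 for Krt6a to 1.00 for Krt80 in the same exact permutation test. Krt5 stood at 0, 61.1, 2.04 and 8.05 normalized fragments in Dp(16)1Yey/+ replicates 0 to 3 and at 1.03, 0, 1.08 and 4.04 in the littermates. Krt15 stood at 0, 75.2, 6.12 and 10.1 against 3.09, 1.98, 2.16 and 3.03. Krt14 stood at 0, 22.3, 3.06 and 3.02 against 1.03, 0.99, 0 and 3.03. In these 3 basal keratins replicate 1 was the highest of all 14 libraries while replicate 0 had no fragment. Krt15 was the sole member with a mean of at least 10 in this line, which it reached through replicate 1. It had a log2 fold change of 1.32 (standard error 1.01) and, in limma, an adjusted p-value of 0.909 (0 of 36024 loci passed, and 1273 or 3.53% had an unadjusted p-value under 0.05). Without replicate 1, the log2 fold changes of Krt5, Krt14 and Krt15 were 0.49, 0.34 and 0.28. Without replicate 0 instead, Krt15 had a log2 fold change of 2.36 (exact permutation test, p = 0.0286, the smallest possible).

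Pkp1 followed the basal keratins, at 0, 38.8, 6.12 and 10.1 normalized fragments against 0, 0, 1.08 and 3.03, and Krt6a stood at 1.98, 23.5, 3.06 and 7.04 against 0, 0, 1.08 and 4.04. The log2 fold change was 2.14 for Pkp1 and 1.96 for Krt6a. Without replicate 1 it was 1.33 for Pkp1 (exact permutation test, p = 0.286) and 1.35 for Krt6a (exact permutation test, p = 0.143). Without replicate 0, in which Pkp1 had no fragment, that of Pkp1 was 3.10 (exact permutation test, p = 0.0286). Hrnr, Krt80, Sprr1a and Krt13 did not share the high value of replicate 1. Hrnr stood at 0, 1.18, 3.06 and 10.1 against 0, 0, 1.08 and 5.06, with its highest value in replicate 3. Krt80 stood at 0, 2.35, 1.02 and 0 against 2.06, 0, 0 and 2.02, a log2 fold change of -0.11. Sprr1a was at 0.989, 1.18, 3.06 and 0 and at 0 in all 4 littermates. The 95% exact interval of the ratio of its 5 fragments to 0 starts at 0.907, for counting error only, so that a difference was not detectable at this depth. The median log2 fold change of the 10 members was 1.23, also with Sprr1a set at the ratio of its fragments to a floor of 3 over the littermate group, against 0.03 over all loci tested, and 0.96 without replicate 1.

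The order of the genes differed between the libraries with signal. Levels per kilobase of annotated exon bring genes nearer to a common scale. The length used is that of all annotated exons of a gene together. For Krt7 it was 7049 bases where the longest transcript has 4094, and for Krt80 6393 where it has 3919. The levels of these genes are therefore lower than by transcript length, and their places in the order depend on this choice. In the littermates of 189N3 mice, Sprr1a (35.9 ± 15.9 normalized fragments per kilobase, SD, n = 3) and Krt13 (19.4 ± 9.08) were the highest of the 9 members other than Hrnr, followed by Krt6a (14.3 ± 8.18), Krt15 (13.2 ± 5.71), Krt5 (10.1 ± 5.24), Krt7 (7.24 ± 3.70), Pkp1 (5.02 ± 2.72), Krt14 (4.07 ± 1.83) and Krt80 (3.09 ± 1.59). These SDs include differences between libraries in the level of all members, and differences between neighbours in this order were not tested. Sprr1a was above Krt13 in each of the 3 libraries, at 41.9, 17.9 and 48.0 against 24.7, 8.92 and 24.6. Hrnr was at 3.48, 1.05 and 106.3 per kilobase in replicates 0, 1 and 2. In Dp(16)1Yey/+ replicate 1 the order was Krt15 (42.6 per kilobase), Krt5 (27.8), Krt14 (12.7), Krt6a (9.72) and Pkp1 (7.72), with Sprr1a at 1.46, Krt7 at 1.17 and Krt13 at 0.646.

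The make-up can also be read as shares of fragments. The basal keratins Krt5, Krt14 and Krt15 took 18.2% (95% Wilson interval 14.6 to 22.5), 23.7% (17.2 to 31.6) and 23.4% (18.7 to 29.0) of the fragments of the 9 members other than Hrnr in the 3 littermates of 189N3 mice. In Dp(16)1Yey/+ replicate 1 they took 67.8% (61.1 to 73.9). These intervals cover counting error only. The other 10 libraries held 5 to 55 fragments of these 9 genes. The share was 34.9% (22.4 to 49.8), 13.2% (5.75 to 27.3) and 30.9% (20.3 to 44.0) in the 189N3 replicates. In Dp(16)1Yey/+ replicates 2 and 3 it was 37.9% (22.7 to 56.0) and 42.0% (29.4 to 55.8), and replicate 0 had none of its 8 fragments there. The 4 littermates of that line gave 47.6 to 60% on 5 to 21 fragments. The intervals of the 4 littermates overlap that of replicate 1, and those of replicates 2 and 3 lie below it.

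**Figure D3:**
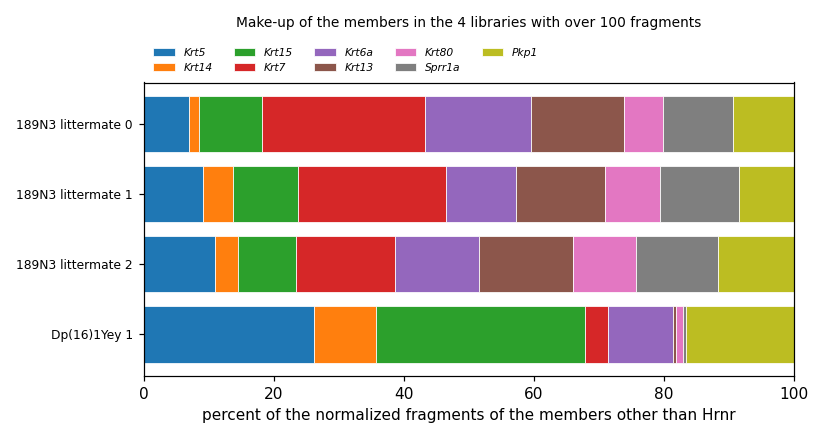
Share of each gene in the normalized fragments of the 9 members other than Hrnr, in percent, for the 4 libraries with over 100 fragments of them. The 3 littermates of 189N3 mice show all 9 genes with Krt7 at 15.2 to 25.1%, whereas Dp(16)1Yey/+ replicate 1 is taken up by Krt15 (32.2%), Krt5 (26.1%) and Pkp1 (16.6%), with Krt13 and Sprr1a at 0.503% each.

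Over the 14 libraries, the correlation between members on the log2 scale ran from 0.46, for Krt13 with Krt15, to 0.95, for Krt7 with Krt13. These are descriptions over libraries that include the groups compared above. Where the isoform table splits a member, 87.6% of Krt80 was assigned to 1 of 3 transcripts and 89.2% of Pkp1 to 1 of 2. Krt14 was split 78.4% to 21.6%, with its 25 fragments in Dp(16)1Yey/+ mice assigned to one transcript and the 5 in their littermates to the other. The assignment also flipped within a group. For the less used and the more used transcript it was 5.415 and 0 in 189N3 littermate replicate 1, and 0.005 and 5.193 in replicate 0. The split is an estimate from few fragments, and no difference between groups is read from it. An assembled locus that overlaps exons of Krt13 on the other strand held 10.4 and 13.3 normalized fragments in 189N3 littermates 0 and 2 and at most 1.08 in the other 12 libraries.

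Other epidermal genes, 48 of 50 listed genes that could be named in the table, did not move as 1 block. In 189N3 mice 39 of the 48 had a lower mean and 9 a higher one, where 55.6% of all loci with any value above 0 were lower. Of the 48, 9 were lower without overlap, where 3.79% of all loci were, none of the 26 tested passed the adjusted threshold in limma (0 of all loci), and in 9 the unadjusted p-value was under 0.05 (1.87% of all loci tested). Among the genes under 0.05 in limma, Krtdap, Calm4, Dmkn and Dsc1 reached the mean of at least 10 through littermate replicate 2. They stood there at 90.6, 169.2, 135.3 and 97.9 normalized fragments. Nothing is read from the count of such genes. The list of other epidermal genes was chosen with results of these libraries known, and its median log2 fold change was -0.53. Of the 17 suprabasal and cornified-layer genes named, 6 were lower without overlap. Of 11 basal epidermis genes none was, and of 14 desmosome genes 2 were.

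Several cornified-layer genes were far higher in littermate replicate 2, the library in which Hrnr was high, than in any other. Krt1, the type II keratin of the spinous layer, stood at 144.7, 93.9 and 1135 normalized fragments in the 3 littermates and at 44.9 to 93.4 in 189N3 mice. Its partner Krt10 stood at 217.4, 139.9 and 740.8 against 131.4 to 145.3. Flg, the filaggrin gene and a neighbour of Hrnr, stood at 1.73, 0.902 and 187.3 against 0.816 to 3.11, and Calm4, a calmodulin-like gene of differentiating keratinocytes, at 22.5, 5.41 and 169.2 against 2.45 to 4.23. Others of the cornified-layer list were not. Lor, the loricrin gene of the cornified envelope, stood at 38.1, 65.0 and 76.1 against 24.5 to 87.2. Tgm3 stood at 9.53, 10.8 and 13.3 against 4.23 to 15.6, and Sprr3 at 16.5, 2.71 and 13.3 against 0 to 6.23. Desmosomal Dsp stood at 115.2, 43.3 and 281.6 against 27.1 to 70.2. It overlapped between the groups, as did the more abundant desmosome genes Pkp4, Jup and Dsc3. The members other than Hrnr did not stand out in littermate replicate 2, since their sum was 314.5, 118.2 and 309.3 in littermates 0, 1 and 2.

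Among the 48 other epidermal genes in Dp(16)1Yey/+ mice, 26 had a higher mean and 18 a lower one, where 46.7% of all loci with any value above 0 were lower, none of the 19 tested passed in limma, and the median log2 fold change was 0.04. Without overlap, 3 were higher, where 1.48% of all loci were: Krtdap, a gene of differentiating keratinocytes, Tgm1, the transglutaminase of the cornified envelope, and Krt19, a type I keratin of simple epithelium. Krtdap stood at 0.989, 4.70, 1.02 and 1.01 normalized fragments against 0 in all 4 littermates, and Tgm1 at 4.94, 8.23, 3.06 and 5.03 against 1.03, 0.99, 2.16 and 2.02. Krt19 stood at 1.98, 17.6, 2.04 and 4.03 normalized fragments against 0, 0, 1.08 and 1.01. Most of these values rest on a few fragments, and all 3 genes were highest in replicate 1. Krt4, the type II partner of Krt13, stood at 0, 82.3, 4.08 and 0 against 0, 0, 0 and 2.02. In replicate 1 Krt4 was therefore at 82.3 beside Krt13 at 1.18, while in the 189N3 littermates it stood at 24.3, 10.8 and 8.46 beside Krt13 at 45.0, 16.2 and 44.7. Trp63, the master regulator of stratified epithelium, stood at 31.7 in replicate 1 and at 8.09 to 24.5 in the other 7 libraries of that line. It was present at 8.97 to 15.6 in the 6 libraries of the 189N3 line, where the groups overlapped. The most abundant of the basal list, Itga6, an integrin subunit also found outside the epidermis, was at 1071 to 2053 in all 14 libraries.

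**Figure D4:**
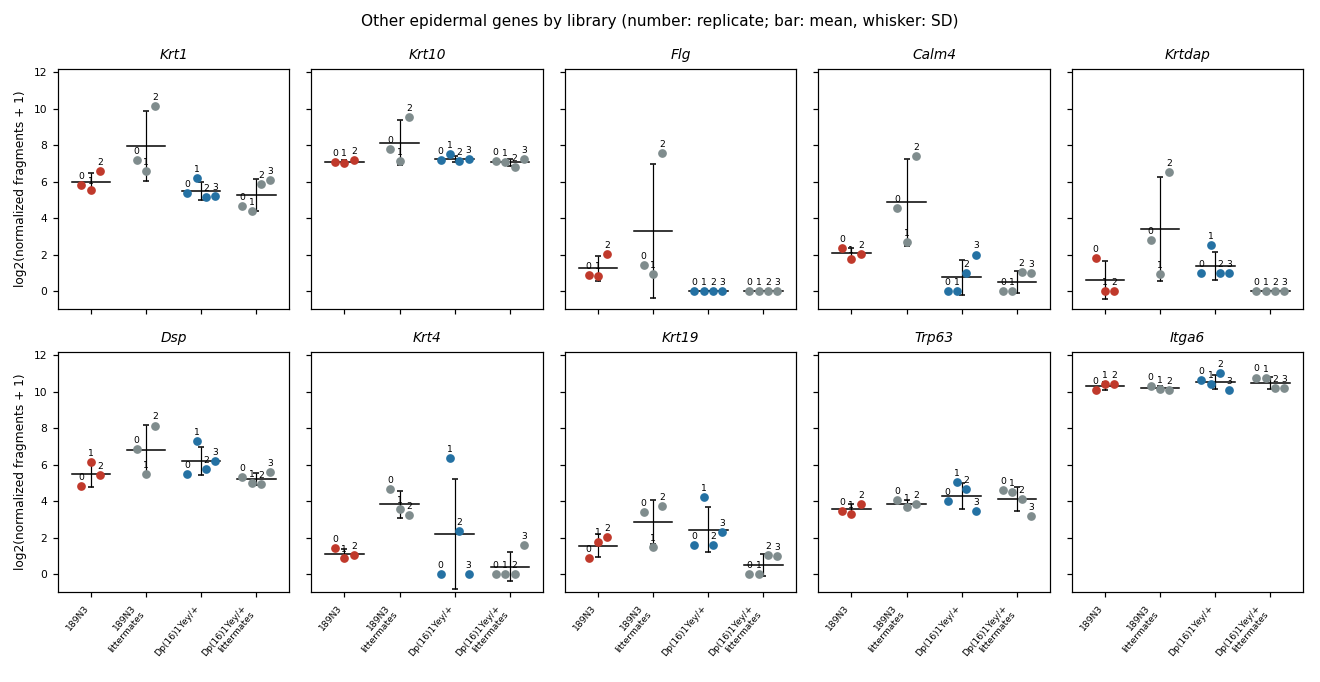
Level of 10 other epidermal genes in every library, as log2 of the normalized fragments plus 1, by group, with the replicate number at each point, the mean as a bar and the SD as a whisker. Krt1, Krt10, Flg, Calm4, Krtdap and Dsp are highest in 189N3 littermate replicate 2, Krt4 and Krt19 in Dp(16)1Yey/+ replicate 1, and Itga6 is level across the groups.

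Genes of blood, connective tissue and muscle, summed by list, were high in 189N3 littermates 0 and 2 and in Dp(16)1Yey/+ replicate 1. The 6 erythroid genes named summed to 13935 to 22232 normalized fragments in 189N3 mice and 33976 to 54439 in their littermates. The 4 Dp(16)1Yey/+ libraries summed to 6152, 48733, 12537 and 22567 in replicates 0 to 3, against 4586 to 17218 in the littermates. All 6 were lower in 189N3 mice, 5 without overlap (2.99% of all loci with a mean of at least 10), and none passed the adjusted threshold in limma. The 6 connective tissue genes summed to 1338 to 2307 in 189N3 mice, 2129 to 5972 in their littermates, 559.7 to 3205 in Dp(16)1Yey/+ mice and 519.2 to 1251 in theirs. The 7 skeletal muscle genes summed to 82.4 to 135.9, 134.5 to 329.2, 26.7 to 597.1 and 25.8 to 63.7 in the same order of groups, with the highest value in Dp(16)1Yey/+ replicate 1. Not every connective tissue gene followed its sum. In Dp(16)1Yey/+ mice 5 of the 6 had a higher mean and 1, Dcn, a lower one. Dcn stood at 196.3 in replicate 1 and at 256.9 to 426.5 in the littermates. In 189N3 mice all 6 had a lower mean, 2 without overlap, and Lum stood at 71.0 in replicate 1 against 37.0 in littermate replicate 1. The defining genes Hbb-bs, Col1a1 and Acta1 were above 0 in all 14 libraries. The part of these tissues in the levels of the keratin and epidermal genes was not tested. A gene of the choroid plexus did not follow. Its transthyretin gene Ttr stood at 13477 normalized fragments in littermate replicate 0 and 326.3 in replicate 2, although the members were high in both.

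**Figure D5:**
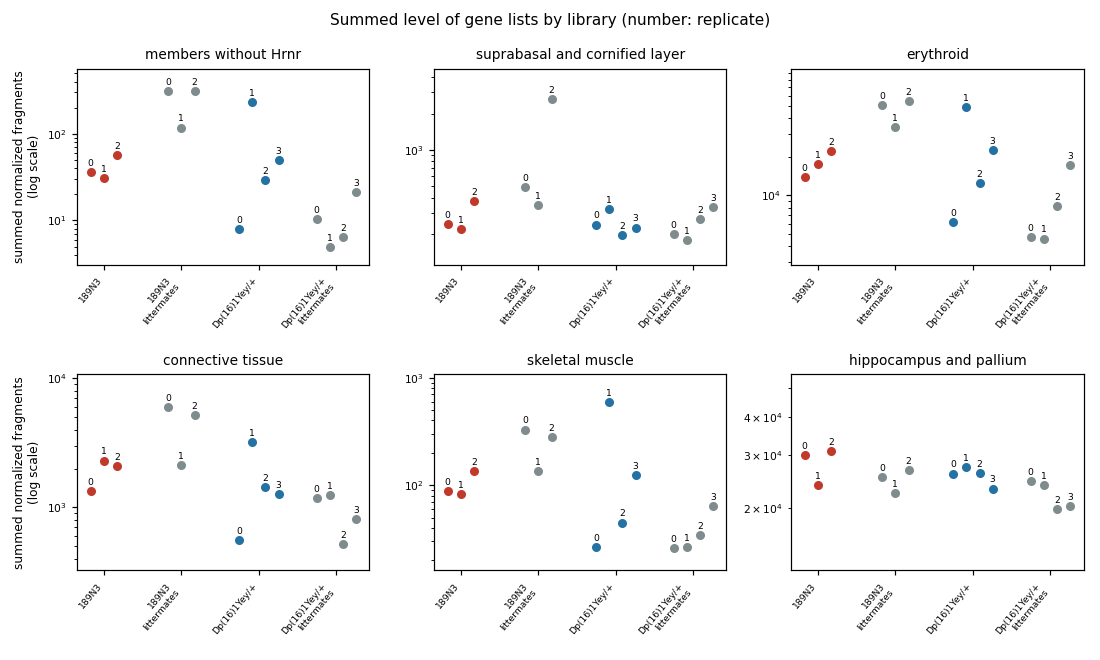
Summed normalized fragments of 6 gene lists in every library on a log scale, by group, with the replicate number at each point. The members without Hrnr, the erythroid, connective tissue and skeletal muscle lists are each high in 189N3 littermates 0 and 2 and in Dp(16)1Yey/+ replicate 1, the cornified-layer list stands out in 189N3 littermate replicate 2 alone, and the hippocampal list lies between 19779 and 30844 throughout.

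The named loci most like the members in pattern were sought by Pearson's correlation of log2(value + 1) with the mean of the 10 members over the 14 libraries, among 14780 loci with a mean of at least 10. Shisa3 (r = 0.96) and Anxa1 (r = 0.94, in a locus shared with AK170612) came first. The collagen genes Col1a2 (0.94), Col1a1 (0.93) and Col14a1 (0.92) and the globin genes Hbb-bs (0.94) and Hba-a2 (0.92) followed, together with Ube2l6 (0.93), Fam46c (0.92) and Alas2 (0.91), the erythroid enzyme of heme synthesis. This Hba-a2 locus is another than the one in the erythroid list. In 189N3 littermate replicate 1 it held 4830 normalized fragments, and the listed locus held 1877. No other listed keratin or cornified-layer gene was among these 10, but few could have been. A mean of at least 10 was reached by 6 of the 17 named cornified-layer genes. Of the 6 named partner and simple-epithelial keratins, 1 reached it. The mean log2 level of the members itself ran from 0.41 in a Dp(16)1Yey/+ littermate to 5.57 in 189N3 littermate replicate 2.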

How the data were processed

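Conditions and replicate numbers (from 0) were taken from the labels. The members and gene lists were chosen with earlier results of these data known. The labels list polyA RNA, whereas their protocol names a kit for total RNA. The authors aligned paired-end reads to mm10 with Bowtie and TopHat, merged Cufflinks assemblies over all samples and counted fragments on them, correcting for fragment bias and for reads with several places. The deposited signal values are fragments per assembled locus (gene table) or transcript (isoform table) divided by 1 size factor per library. Low values were whole multiples of 1 fragment in all 14 libraries (100% within 0.05 fragment). Loci were named by matching each to the locus of the deposited map whose isoforms sum to it (52028 of 59796 matched). The scaled values were used as deposited.

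Each line was compared with its own littermates by limma 3.58.1 (R 4.3.3) on log2(value + 1), with an intensity trend, over loci with a mean of at least 10, and Benjamini-Hochberg adjustment at 0.05. Fold changes of low genes are understated on this scale. Single members were tested by exact two-sided permutation. For the 189N3 comparison, edgeR 4.0.16 and DESeq2 1.42.0 were run on the recovered fragments. All genes named are members, genes of the fixed lists (those with the highest means or shown in a figure were picked after their values were seen) or the 10 loci most alike in pattern. Gene positions and exon lengths came from GENCODE M21, promoters from RefSeq. Replicates with the same number did not vary together, so no pairing was assumed. The limma fit was checked on simulated data in which the changed loci were more abundant than most members. That check does not cover genes as low as these, nor the permutation test.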

Additional observations from a re-analysis of the deposited data

Results flagged for a closer look

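In the Dp(16)1Yey/+ group, replicate 1 lay far from the other 3 libraries for Krt5 (61.1 normalized fragments, a gap of 0.868 of the group's range), Krt14 (22.3, 0.863) and Krt15 (75.2, 0.866), each past Dixon's critical value at 95% for 4 samples. For normally distributed values chance flags about 1 in 20 groups, a rate that need not hold for these low values, taken without logs. Of the 19 groups of 4 with any spread, 3 were flagged, all through this 1 library. These are not separate results, as the 3 genes correlated at 0.89 to 0.92 over the 14 libraries. It also had the highest erythroid and skeletal muscle sums of its line, and a median log2 difference of 0.10 over the triplicated region. Their part in the keratin values was not tested.

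Krt7 and Krt13 lay on opposite sides of the littermates in the models. All libraries of 189N3 mice lay below all their littermates, with log2 fold changes of -2.10 for Krt7 and -1.98 for Krt13, and all Dp(16)1Yey/+ libraries lay above theirs, with 1.24 and 1.22. The difference between the models was not tested, as the 189N3 values had a part in choosing the members.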

How the results depend on the processing

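The number of loci past the adjusted threshold in 189N3 mice rose from 0 to 4 with median-ratio size factors, 72 with the replicate number as a block and 15 with DESeq2 (8 loci without an adjusted p-value), and ran from 0 to 28 with each library left out, the latter without littermate replicate 1. In Dp(16)1Yey/+ mice it ran from 0 to 3, the latter without replicate 1. The correlation of same-numbered libraries ran from -0.32 to -0.03 in the 189N3 line and from -0.45 to -0.07 in the Dp(16)1Yey/+ line, so the numbers do not pair the samples. The median of the members in 189N3 mice was -1.36 with a pseudocount of 10 and ran from -3.07 to -2.17 with each library left out. In Dp(16)1Yey/+ mice it was 2.49 as the log2 ratio of group means (9 members, without Sprr1a) and 0.96 to 1.64 with each library left out. Of the members, 2 had a permutation p-value under 0.05 in Dp(16)1Yey/+ mice, against 0 with the replicate block, where the smallest possible is 0.125, and 0 with nearly alike littermates averaged. With each library left out the number ran from 0 to 4: 4 without replicate 0 (Krt15, Pkp1, Krt7 and Krt13), 1 without littermate replicate 0 or 1, and 0 without littermate replicate 2 or 3. Krt80 changed sign in 4 of these fits, and its log2 fold change ran from -0.46 to 0.16. Every fold change of a member in 189N3 mice stayed below 0 under all alternatives run. edgeR and DESeq2 were not run for Dp(16)1Yey/+ mice. A check of units did not accept the recovered fragments of some libraries of that line, whose size factors are near 1. Low values of these libraries were still whole multiples of 1 fragment, and the fragment counts given above for that line rest on this. Depth limits every value here: a count of 0 in 1 library has a 95% exact upper bound of 3.69 expected fragments.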
